A study of Mus musculus with 2 samples.

Results

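The genes examined here are the 9 genes Kit, Kitl, Pdpk1, Akt1, Tsc1, Tsc2, Foxo1, Foxo3 and Cdkn1b, which act between the KIT receptor and the FOXO transcription factors in the control of follicle activation. They were chosen by name, and every probe whose RefSeq transcript belongs to 1 of them was taken, which gave 12 probes at 14 spots, out of 20660 named genes and 55681 probes on the array. Gene expression was measured in mouse ovaries, taken at 2 weeks of age, cut lengthwise and cultured for 3 days with ligands of the 3 tachykinin (TK) receptors TACR1, TACR2 and TACR3. TK receptor (TKR) agonists were given to 1 group and TKR antagonists to the other, each ligand at 1 μM, and 1 single-colour array was hybridised per group. The sources used here give neither the mouse strain of these cultures nor the number of ovary pieces behind each RNA, and no array of untreated ovaries was analysed here. The agonist for TACR1 was [Sar9, Met(O2)11]-SP, that for TACR2 was GR-64349 and that for TACR3 was a succinylated fragment of substance P (SP). The antagonist group received a selective antagonist of each receptor, among them GR-94800 for TACR2 and SB218795 for TACR3. Since each group has 1 array, how much ovaries vary is unknown, and every comparison here is descriptive, without a p-value.

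Most oocytes of the young ovary rest in primordial follicles, and a few at a time are recruited to grow. Granulosa cells make KIT ligand (Kitl), which binds the receptor tyrosine kinase KIT on the oocyte and on theca and interstitial cells. KIT activates PI3K, the kinases PDK1 (Pdpk1) and AKT then act in turn, and AKT phosphorylates FOXO3 in the oocyte, which leaves the nucleus as the follicle is activated. The TSC1 and TSC2 proteins hold back mTORC1 and so restrain growth of the oocyte, p27 (Cdkn1b) restrains the cell cycle, and FOXO1 is the FOXO factor of granulosa cells in growing follicles. Much of this control works through phosphorylation, which an array of transcripts does not measure.

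Of the 9 genes, Kit stood highest on the agonist array relative to the antagonist array, at 1.64-fold, and Tsc2 stood lowest, at 1.66-fold below the antagonist value. The other 7 genes had log2 ratios between -0.38 and 0.09. None of the 9 reached 2-fold in either direction. Among the 15260 named genes measured on both arrays, 4.01% were higher with the agonists by 2-fold or more and 0.577% were lower by that much. At 1.5-fold, 1 gene was higher (Kit) and 1 lower (Tsc2), against 9.26% and 4.28% of all genes. A log2 ratio here is the log2 signal with TKR agonists minus that with TKR antagonists, after each array was scaled to its own 75th percentile. All 12 probes were well above background on both arrays by the criterion of the image analysis software, so every ratio is measured on both sides.

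The promoter windows of Kit and Kitl are shown because this receptor and its ligand gave unlike ratios. Each window holds 250 bases before and 50 after the transcription start given by RefSeq for GRCm38.p6, printed 5′ to 3′, and capitals mark the GC box GGGCGG on either strand, a binding motif of SP1. Kit lies on the plus strand (chr5:75574737-75575036) and so does Kitl (chr10:100015571-100015870).
Kit: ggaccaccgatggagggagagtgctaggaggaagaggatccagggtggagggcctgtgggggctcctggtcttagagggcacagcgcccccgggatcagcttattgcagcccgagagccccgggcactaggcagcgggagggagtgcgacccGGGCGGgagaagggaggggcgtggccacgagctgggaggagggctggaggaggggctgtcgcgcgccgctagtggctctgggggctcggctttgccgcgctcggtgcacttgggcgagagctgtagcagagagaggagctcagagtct
Kitl: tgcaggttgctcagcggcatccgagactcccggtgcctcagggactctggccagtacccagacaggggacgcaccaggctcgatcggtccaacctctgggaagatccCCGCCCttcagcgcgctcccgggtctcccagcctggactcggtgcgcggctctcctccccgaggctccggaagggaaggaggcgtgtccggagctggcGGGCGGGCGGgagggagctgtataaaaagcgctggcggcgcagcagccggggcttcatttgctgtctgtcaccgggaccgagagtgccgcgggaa
The Kit window holds 1 GC box and the Kitl window 3, of which 2 overlap. RefSeq lists another start of Kit whose window is nearly the same. Windows were found for 9 of the 9 genes, 12 windows in all. A GC box was in 8 of them, against 35.7% of the 32851 windows of the table. The FOXO motif GTAAACA, searched on both strands, was in 1 of the 12 windows, a window of Akt1, against 3.65% of all windows. The STAT motif TTCNNNGAA was in 1, a window of Pdpk1, against 8.30%. These matches describe the letters of the windows and were not set against binding data.

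Kit, the receptor, was measured by 1 probe for NM_001122733 printed at 2 spots. Its processed signals were 2240 ± 224 and 2262 ± 226 units with the agonists and 1174 ± 117 and 1149 ± 115 units with the antagonists, where each error is the image software's own estimate for the spot. Both agonist spots were brighter than both antagonist spots. The log2 ratio was 0.71 ± 0.20, and 93.0% of all genes had a lower one. The unscaled log2 ratios of the spots were 0.93 and 0.98, so the spots differed from each other by far less than the arrays did. For comparison, the 285 probes printed at 10 spots and well above background at all of them had a median SD between spots of 0.07 on the log2 ratio. Neither the software's error nor the spread between spots holds any variation from ovary to ovary. In RNA of whole tissue, more cells that make a transcript and more transcript per cell cannot be told apart.

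Kitl, the ligand, was measured by 1 spot of 1 probe for NM_013598. It gave 623 ± 62.4 units on the agonist array against 575 ± 57.7 units on the antagonist array. The log2 ratio was -0.13 ± 0.20, close to the median of all genes, which was -0.10. The receptor therefore stood apart from its ligand: the log2 ratio of Kit exceeded that of Kitl by 0.84 ± 0.29, or 1.79-fold. This difference does not depend on the constant by which an array is scaled, and over the alternative settings its lowest value was 0.74 (normexp) and its highest 0.91 (quantile normalization).

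**Figure D1:**
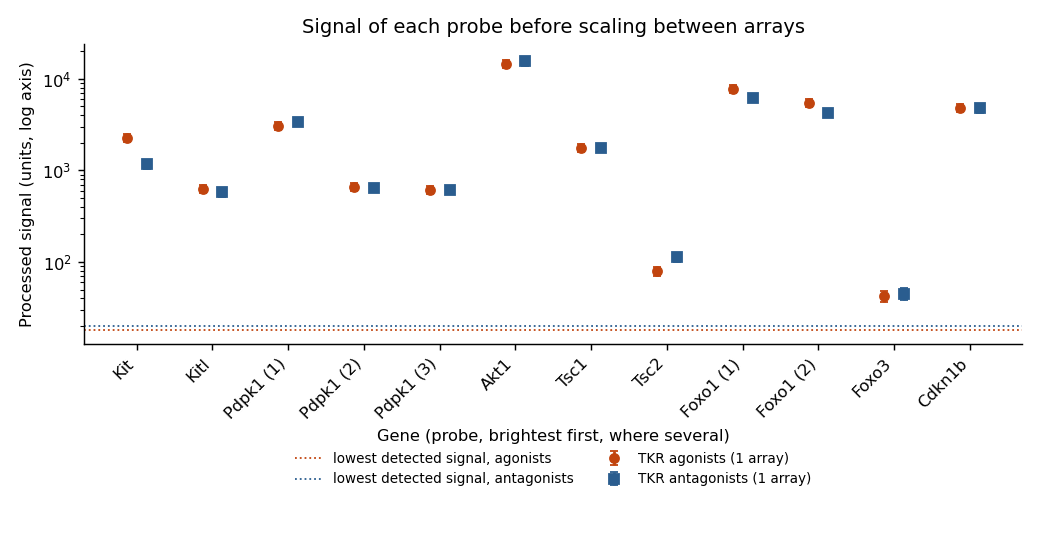
Processed signal of each of the 12 probes (log axis) on the TKR agonist array (circles) and the TKR antagonist array (squares) before any scaling between arrays; bars are the image software's error of a spot (mean over spots for Kit and Akt1), and dotted lines mark the lowest signal well above background on each array. Kit at 2251 against 1161 units shows the widest gap, and the probes of Tsc2 and Foxo3 lie nearest the dotted lines.

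In the kinase cascade, Pdpk1 encodes PDK1, the kinase that phosphorylates AKT at the membrane. Its brightest probe gave 3084 ± 308 units with the agonists and 3391 ± 339 units with the antagonists, a log2 ratio of -0.38 ± 0.20. A second probe of the same transcript, NM_011062, gave 660 and 639 units and a log2 ratio of -0.19. Another, for NM_001080773, gave 614 and 613 units and a ratio of -0.24. The 3 probes thus lay within 0.18 of each other, less than the error of a single probe, and all were on the same side of 0. Akt1, the kinase that phosphorylates FOXO and TSC2, was measured at 2 spots of 1 probe. The spots gave 14716 and 14459 units with the agonists and 15989 and 14941 units with the antagonists. The log2 ratio was -0.33 ± 0.20, and each agonist spot was dimmer than each antagonist spot, by little. Its paralog Akt2 had a ratio of -0.23, which differed from that of Akt1 by less than the error, and another probe of Akt2 gave -0.04.

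Tsc1 and Tsc2 encode the partners of the complex that inhibits mTORC1. The Tsc1 probe gave 1765 ± 177 units with the agonists and 1757 ± 176 units with the antagonists, a log2 ratio of -0.24 ± 0.20. The single Tsc2 spot was dim, at 79.7 ± 9.20 units with the agonists and 112 ± 12.2 units with the antagonists. Its log2 ratio was -0.73 ± 0.23, and only 2.04% of all genes had a lower one. The agonist signal of Tsc2 was 4.39 times the lowest signal well above background on that array. With the normexp correction, which also adds an offset of 50 units, the ratio was -0.42, and the cause of this move was not tested. The partners differed by 0.50 ± 0.31, with Tsc2 the lower. The signal of Tsc2 rests on 1 spot, and no other probe of the gene was named.

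Foxo1 was the only one of the 9 genes besides Kit with a positive log2 ratio under this scaling. Its brighter probe gave 7725 ± 773 units with the agonists and 6135 ± 614 units with the antagonists, a ratio of 0.09 ± 0.20. Its other probe gave 5485 ± 549 and 4249 ± 425 units and a ratio of 0.13. The probes differed by 0.04, and both ratios were within their error of 0. Foxo3, the FOXO factor that keeps primordial oocytes at rest, was measured by 1 dim spot, at 42.2 ± 6.08 units with the agonists and 45.1 ± 6.48 units with the antagonists. These signals were 2.33 and 2.27 times the lowest signal well above background on their arrays. The log2 ratio of Foxo3 was -0.34 ± 0.29. The FOXO pair differed by 0.43 ± 0.36, with Foxo1 the higher. Cdkn1b, which encodes the CDK inhibitor p27, gave 4832 ± 483 units with the agonists and 4740 ± 474 units with the antagonists, a log2 ratio of -0.21 ± 0.20.

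**Figure D2:**
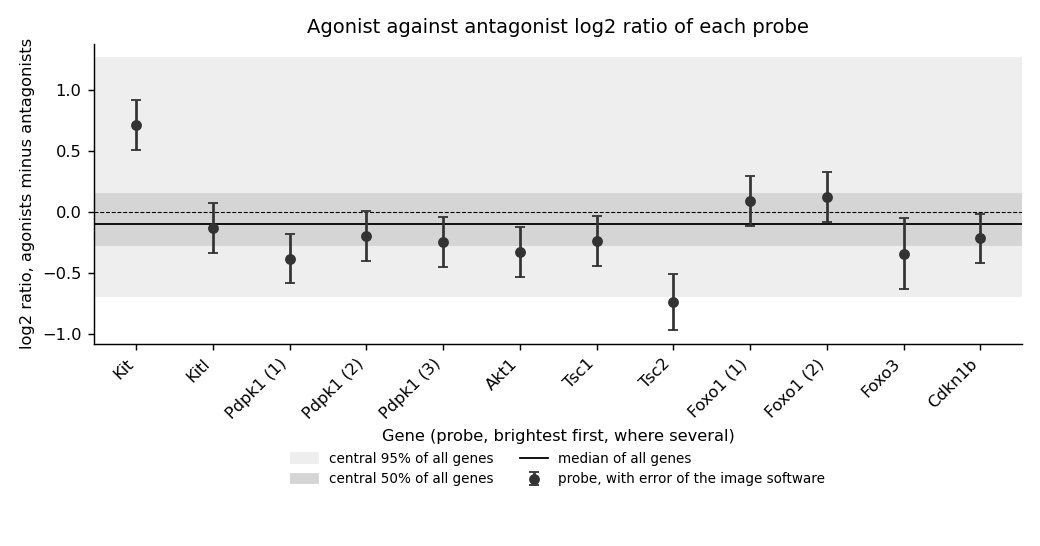
log2 ratio (agonists minus antagonists, 75th percentile scaling) of each of the 12 probes; bars are the image software's error of the log2 ratio, shaded bands hold the central 50% and 95% of the 15260 genes, and the solid line is their median. Kit lies above the central 50%, the probes of Tsc2, Akt1 and Foxo3 and the brightest of Pdpk1 lie below it, Tsc2 is also just below the central 95%, and the probes of Pdpk1 and of Foxo1 lie close together.

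The median log2 ratio of the 9 genes was -0.24, against -0.10 for all genes, and 37.7% of all genes had a positive ratio. Kit and Foxo1 were above the median of all genes and 7 of the 9 were below it. Without scaling the median of all genes moved up by 0.24, and with scaling on spike-in controls by 0.28, which turned the ratios of Kitl, Tsc1, Cdkn1b and the dimmer probes of Pdpk1 positive. Ratios are therefore also given relative to the median of all genes. Settings that add a constant to every ratio cannot change this measure. For the 7 genes with 1 probe, Kit among them, settings for spots, probe choice and dim probes left the gene's own ratio unchanged. Those settings moved only the median of all genes. For these genes, quantile normalization, loess and normexp are therefore the settings that bear on stability. On that measure Kit was 0.81 above the median and stayed between 0.80 and 0.84 in all 15 settings. Its value was 0.84 with quantile normalization, 0.83 with loess and 0.82 with normexp. Foxo1 was 0.19 above it and stayed between 0.19 and 0.25. Tsc2 was at -0.64 from it, and at -0.32 with normexp. Pdpk1, Akt1, Tsc1, Foxo3 and Cdkn1b were below the median in all 15 settings, at distances between -0.28 (Pdpk1) and -0.12 (Cdkn1b) with the 75th percentile. Kitl was at -0.03, and at 0.08 with normexp. The software's error was close to 10% of the signal on each array for every probe except the dim ones of Tsc2 and Foxo3. It was thus nearly the same for most of the genes, and passing it is a description and no test. Of the 9 genes, 4 lay farther from the median of all genes than this error, namely Kit, Tsc2, Pdpk1 and Akt1. Kit and Tsc2 did so in all 15 settings. Akt1 came within its error with quantile normalization (-0.11), loess (-0.18) and normexp (-0.17), and Pdpk1 with the mean over its probes (-0.18) or its dimmest probe (-0.16). In the other direction, Foxo1 passed its error with quantile normalization (0.25), loess (0.23), normexp (0.23) and its dimmest probe (0.21). It did so barely with no filter on dim probes (0.20). Foxo3 passed its error with quantile normalization and loess, at -0.34 in each.

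**Figure D3:**
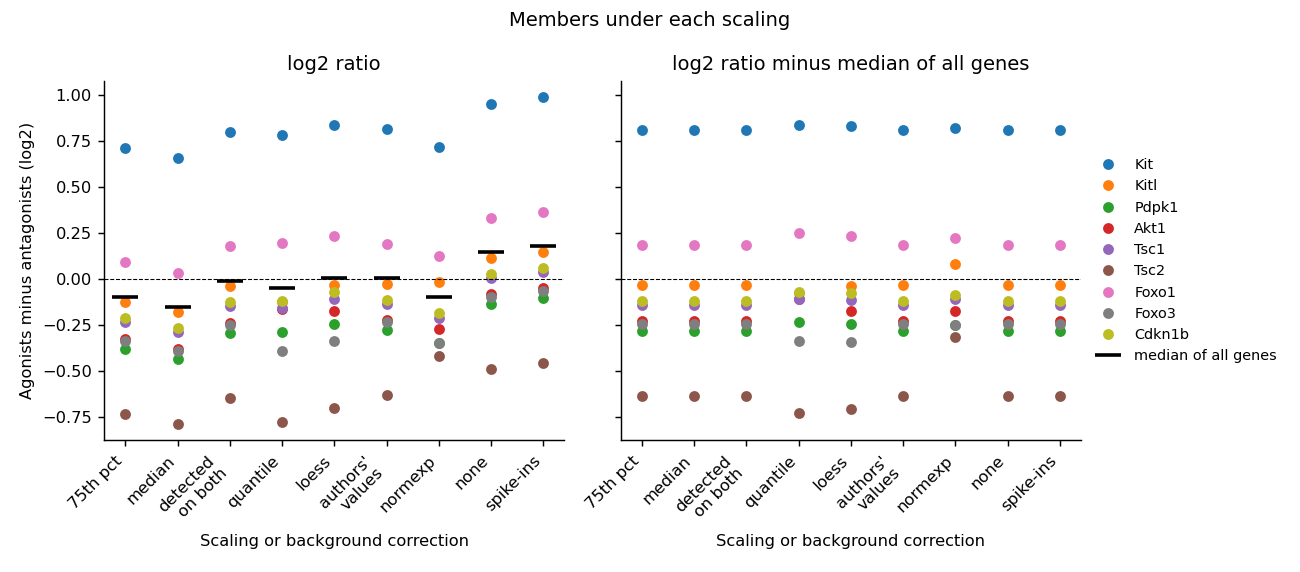
log2 ratio of the 9 genes (left) and its distance from the median of all genes (right) under 9 scalings or background corrections; each point is the brightest probe of a gene and black bars mark the median of all genes. Relative to that median, a measure that adding a constant cannot change, Kit stays between 0.81 and 0.84, and Tsc2 comes closer to the other genes with normexp.

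KIT is also made by cells other than oocytes, so marker lists were read beside it. The ovary label held: oocyte, granulosa and theca markers such as Gdf9, Zp3, Foxl2, Inha and Cyp17a1 were well above background on both arrays. Of 14 oocyte markers with a probe 14 were detected on both arrays, with log2 ratios between -0.13 and 0.59 and a median of 0.09. All 14 were below Kit, whose ratio exceeded their median by 0.63. The nearest were Figla, a transcription factor of early oocytes, at 0.59, and Sohlh1, a transcription factor of primordial oocytes, at 0.51. Kit exceeded Figla by 0.12 ± 0.29, which is within the error. The oocyte markers summed to 272 times the array's 75th percentile with the agonists and to 277 times with the antagonists. These sums came mostly from Gdf9, whose ratio was -0.08, while 9 of the 14 markers had positive and 5 negative ratios. Of the 7 theca and interstitial markers measured on both arrays 3 had positive ratios, with a median of -0.11 and values up to 0.79 (Cyp11a1, the first enzyme of steroid synthesis). They summed to 127 against 116 in the same units, and Lhcgr was not well above background on either array.

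Mast cells carry much KIT, but 6 of the 8 mast cell markers with a probe were not well above background on either array: Cpa3, Mcpt4, Cma1, Ms4a2, Fcer1a and Mrgprb1. The tryptase gene Tpsb2 was detected with a log2 ratio of -0.05, and Hdc, which encodes the enzyme that makes histamine and is not confined to mast cells, was 3.93-fold higher with the agonists. Together these 2 genes summed to 4.64 on the agonist array against 1.38 on the antagonist array, mostly from Hdc. Of 6 melanocyte markers, Tyrp1 and Dct were not well above background on either array, and the other 4 had ratios between -0.68 (Pmel) and 0.60 (Mitf), summing to 1.94 against 1.44. The part of any of these cell types in the ratio of Kit was not tested.

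Kitl and Foxo1 are transcripts of granulosa cells, and the 13 granulosa markers, all detected on both arrays, had a median log2 ratio of -0.47. Of these 5 had positive and 8 negative ratios, and the lowest was -1.17 (Inhbb, an activin and inhibin subunit). Kctd14, the brightest, had -0.21, although another of its probes gave 0.30. The ratio of Kitl exceeded the median of the granulosa list by 0.34. These markers summed to 954 on the agonist array against 1114 on the antagonist array, mostly from Kctd14, and the part of granulosa cells in the ratios of Kitl and Foxo1 was not tested.

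**Figure D4:**
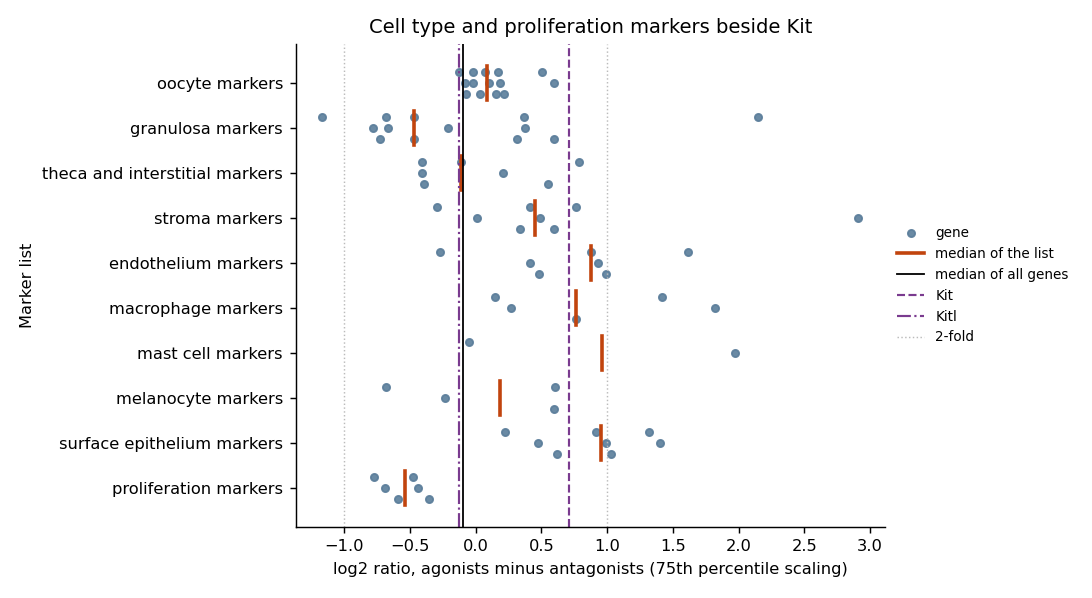
log2 ratio (agonists minus antagonists) of each marker gene well above background on both arrays, by list; short bars are list medians, the solid line is the median of all genes, and dashed and dash-dotted lines are Kit and Kitl. All 14 oocyte markers lie left of Kit, and the mast cell list is left with 2 detected genes.

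The rest of the pathway was read from lists of 100 further genes, of which 99 had a probe and 95 were well above background on both arrays. Their median log2 ratio was -0.12, against -0.10 for all genes, and 32.6% were positive. Of the 95, 4 genes or 4.21% were higher by 2-fold or more, close to the share of all genes, and 1 gene or 1.05% was lower by as much. At 1.5-fold 9 were higher and 5 lower, or 9.47% and 5.26%.

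Among the adaptors and regulators of KIT, 16 of 16 genes were detected, with a median of -0.11. None reached 2-fold. Ptpn6, the phosphatase SHP-1 of blood cells, which dampens KIT signalling, had 217 against 111 units and a log2 ratio of 0.72 ± 0.21. Sos1, an activator of RAS, was lowest at -0.56 ± 0.25, from a dim signal of 56.2 against 70.1 units. Of the PI3K subunits and the receptors and adaptors that feed them, 11 were detected on both arrays, with a median of -0.09, none past 2-fold. Insr, the insulin receptor, was highest at 0.45 ± 0.21, and another of its probes gave 1.03. Igf1r, the IGF1 receptor, was lowest at -0.32 ± 0.20. Pik3cg, a PI3K catalytic subunit best known from white blood cells, was well above background on the agonist array only, at 104 units, and was at least 4.42-fold higher there. This bound divides the agonist signal by the lowest signal well above background on the antagonist array, after scaling. Its adaptor Pik3r5 was also detected only with the agonists. Its signal of 24.6 units was near the lowest signal well above background on that array (18.1 units), so no fold is given.

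The enzymes that oppose PI3K had a median of -0.02 over 9 genes. Inpp5d, the phosphatase SHIP1 of blood cells, was 2.07-fold higher, at 615 against 252 units. Inpp4b, which removes a phosphate from the lipid product of PI3K, was detected with the agonists only, at 85.6 units, and was at least 3.64-fold higher. Inpp4a, its paralog, was lowest at -0.54 ± 0.29, from a dim signal of 38.6 against 47.5 units, and its other probe gave -0.23. Jak3, a kinase of cytokine receptors, which was in the list of CDK inhibitor partners, was 2.02-fold higher, at 269 against 113 units. The other probe of Jak3 gave a log2 ratio of 1.43. Pik3cd, the other PI3K catalytic subunit best known from white blood cells, had a log2 ratio of -0.05. Over the 15 settings the log2 ratios of Inpp5d, Jak3 and Ptpn6 went down to 0.92, 0.66 and 0.40, so Inpp5d and Jak3 passed 2-fold in only some of them. Ptpn6, Inpp5d, Pik3cg, Pik3cd and Jak3 are all genes of white blood cells, so the markers of these cells are given beside them. Of the 7 macrophage and leukocyte markers with a probe, 5 were detected on both arrays, all 5 with positive ratios, from 0.15 (Csf1r, the brightest) to 1.82 (Mrc1), with a median of 0.76. Another probe of Csf1r gave -0.09. Ptprc and Fcgr1 were detected with the agonists only. The 5 summed to 11.4 against 9.06, and the part of white blood cells in the ratios of these genes was not tested.

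The AKT paralogs and mTORC2 genes had a median of -0.20 over 10 genes, and the mTORC1 genes a median of -0.22 over 15, of which 13 were negative. Relative to the median of all genes these medians were -0.11 and -0.13. They stayed below it in all 15 settings, at nearest by -0.04 and -0.08. Settings that add a constant to every ratio cannot change these distances. Both medians turned positive in themselves with no scaling and with scaling on spike-in controls. Mtor gave 539 against 495 units and a ratio of -0.12 ± 0.20, whose sign also turned. Sgk1, a kinase related to AKT, was highest of its list at 0.49. Mapkap1, an mTORC2 subunit, was lowest at -0.41, and its other probe gave -0.19. In the mTORC1 list Ddit4, a stress-induced inhibitor of mTORC1 that acts through the TSC complex, was highest, at 25167 against 13449 units and a log2 ratio of 0.66 ± 0.20. Prkaa2, a catalytic subunit of AMPK, was lowest at -0.67 ± 0.21.

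The FOXO family and its regulators had a median of -0.10 over 9 genes. Foxo6 was highest, with 3997 against 2348 units and a ratio of 0.53 ± 0.20, and its other probe gave 0.57. Foxo6 exceeded Foxo1 by 0.43 ± 0.29. Ywhae, a 14-3-3 protein of the family that holds phosphorylated FOXO in the cytoplasm, was lowest at -0.26, which turned to 0.01 with scaling on spike-in controls. Foxo4 was near background, at 19.2 units with the agonists and 18.2 with the antagonists, and was well above it with the agonists only, so no fold is given.

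Of the 18 genes known as FOXO targets, 9 had positive and 9 negative ratios, while 37.7% of all genes had a positive one. Their median was -0.01, which is 0.09 above the median of all genes. Over the 15 settings it stayed between 0.04 and 0.16 above that median. Pdk4, an inhibitor of pyruvate dehydrogenase, was 2.28-fold higher, at 942 against 349 units. Gadd45a, a DNA damage gene, was lowest at -0.70 ± 0.20. Of the genes that work with or beside p27, Cdkn1c, which encodes its paralog p57, was 3.29-fold higher, at 1944 against 499 units, and its log2 ratio exceeded that of Cdkn1b by 1.93 ± 0.29. Ccne1, cyclin E1, the partner of the kinase that p27 inhibits, was 2.31-fold lower, at 903 against 1764 units, and its other probe gave -1.14. Its log2 ratio went up to -0.93 over the 15 settings, which is short of 2-fold. The 6 proliferation markers were all negative, from -0.77 (Top2a) to -0.36 (Ccnb1), with a median of -0.53, and Pcna, the brightest, had -0.59. A second probe of Cdk1 gave 0.03. They summed to 62.0 on the agonist array against 91.2 on the antagonist array. The part of dividing cells in the ratios of Cdkn1c and Ccne1 was not tested.

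**Figure D5:**
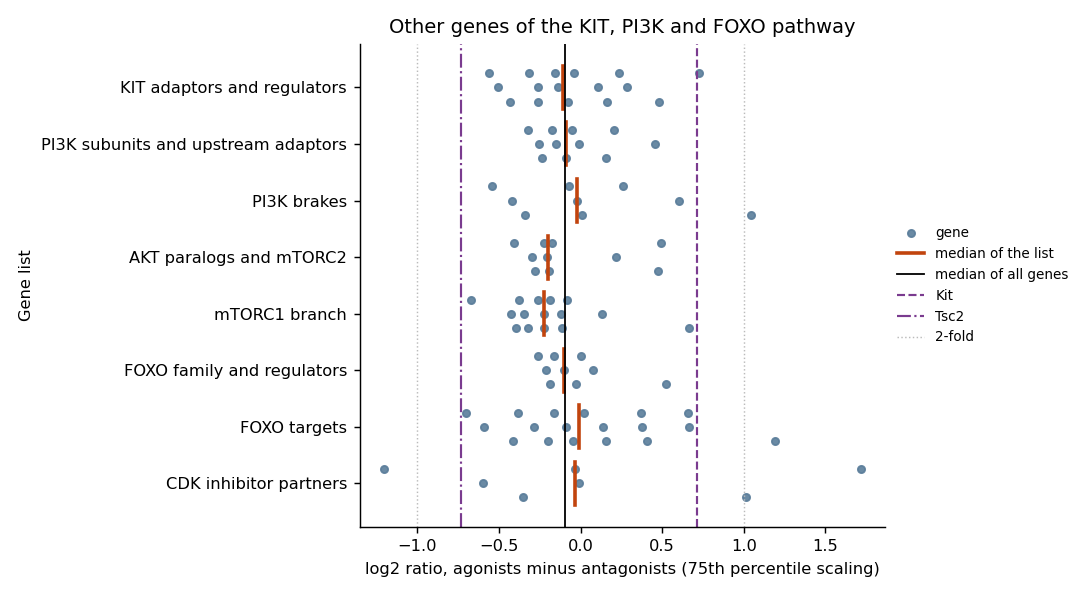
log2 ratio (agonists minus antagonists) of the 95 pathway genes well above background on both arrays, in 8 lists; short bars are list medians, the solid line is the median of all genes, dotted lines mark 2-fold, and dashed and dash-dotted lines are Kit and Tsc2. Most lists centre near the median of all genes, and Cdkn1c and Ccne1 in the bottom list lie farthest out.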

How the data were processed

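Each of 2 single-colour mouse oligonucleotide arrays, on the same slide, was read by Agilent Feature Extraction 10.10.1.1. The authors deposited linear spot intensities, background-corrected by that software and not scaled between arrays, and a summary table of these intensities times a constant per array (1.99 and 2.19). The design used mm9; 27235 probes were named through RefSeq transcripts of GRCm38.p6, and probes with other accessions stayed unnamed.

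Control and outlier spots were left out (0 outliers among the 14 spots of the 9 genes). Log2 signals were reduced by the array's 75th percentile (672 and 569 units), and spots of a probe were averaged. No spot was saturated, and 65.4% and 61.6% of spots were well above background. A probe was detected where over 50% of its spots were, and the brightest probe detected on both arrays stood for a gene. Errors of log2 ratios combine the software's errors of both arrays, and the number of arrays limits the precision.

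Of each pathway list the highest and lowest gene and those past 2-fold were to be named, with Mtor and, of marker lists, the brightest gene and those past 2-fold; other genes were named after their values were seen, and some genes under this rule are not reported here. The genes and lists were chosen with earlier results of these data known. Alternatives were other scalings, the summary table, normexp (offset 50), other ways to combine spots or probes, other treatments of dim probes, and thresholds of 1.5-fold and 4-fold. The calculations were tested on simulated data (Python 3.11.15, numpy 2.4.6, pandas 2.3.3, R 4.3.3, limma 3.58.1).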

Additional observations from a re-analysis of the deposited data

How the results depend on the processing

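No paired analysis was possible because there is 1 array in each group and nothing was tested. The count of the 9 genes past 2-fold was 0 with every scaling, background correction, summary and filter and with the 4-fold threshold, and 2 with the 1.5-fold threshold. The median log2 ratio of the 9 genes, -0.24, became 0.0065 with no scaling and 0.0399 with scaling on spike-in controls, and that of the 95 pathway genes, -0.12, became 0.12 and 0.16; by construction these settings add a constant to every ratio. In the other alternatives both medians moved by less than the error of a probe. Of 144 values of the 12 probes under the alternatives, 121 moved by less than the probe's error, 23 by more and 10 changed sign. The 10 are those of Kitl, Tsc1, Cdkn1b and the dimmer probes of Pdpk1 under these same settings. Beyond these 2 settings, 1 value moved by more than its error, that of Tsc2 with normexp (the cause was not tested). The settings for spots, outlier spots and dim probes returned the main value of every probe and could not do otherwise. None of the spots was an outlier, no probe had more than 2 spots, and all 12 probes were well above background. Their values are counted among the 121 but do not bear on stability. The log2 ratio of Kit stayed between 0.66 and 0.99. The probes of Tsc2 and Foxo3 lie nearest the background, which limits their precision.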

Other observations

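Lists of other cell types, read with the same scaling, gave the following values. The 8 surface epithelium markers all had positive log2 ratios, with a median of 0.95, and ranged from 0.23 (Wt1, the brightest) to 1.40 (Krt19). Of 7 endothelium markers measured on both arrays 6 were positive, with a median of 0.88; Tie1, a receptor kinase of endothelium, was 3.07-fold higher, while Kdr, a receptor of VEGF, had -0.27 and 0.38 at its probes. Tek, the receptor of angiopoietins, was detected with the agonists only and was at least 4.10-fold higher. Of 8 stroma markers 7 were positive, with a median of 0.45; Dcn, the brightest, had 0.34 and Mfap5, a microfibril protein, was 7.52-fold higher. The log2 ratio of Kit, 0.71, lies within the range of each of these lists. It also lies within those of the granulosa, theca and interstitial, macrophage and mast cell lists. The oocyte, melanocyte and proliferation lists lie wholly below it. The part of any cell type in the ratio of Kit was not tested.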
